A study of Mus musculus with 3 samples.

Results

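The neurons described here are *Cartpt*-high *Sncg*-high cells of *Ednrb*-/- mice, taken from the small gut, and they were chosen by the RNA level of these genes alone. A cell was a member when its deposited value, ln(1 + UMIs per 10000 UMIs of the cell), was at least 2.5 for *Cartpt* and at least 2.0 for *Sncg*, where a UMI is a molecular tag that counts 1 captured RNA molecule. By this rule 220 of the 2060 deposited cells were members, and the other 1840 cells of the same libraries were the comparison. The study sorted tdTomato-positive cells from the longitudinal muscle and myenteric plexus of the whole small intestine at postnatal day 14, with 1 library for each of 3 mice, and the deposited table holds what remained after the authors' selection of neurons. All 3 mice carried the same genotype, *Wnt1*-tdT; *Ednrb*-/-, on a background labelled C57BL/6, so no cell here comes from a mouse with the receptor and every comparison is between cells of the same animal. Wnt1-Cre marks descendants of the neural crest, which include glia as well as neurons, the *Ednrb* deletion is constitutive, and these mice lack ganglia in the distal gut, which was not the segment sampled.

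The enteric nervous system controls gut movement, secretion and blood flow through motor neurons, interneurons and sensory neurons that differ in their transmitters. Inhibitory motor neurons of the myenteric plexus relax the muscle with nitric oxide, made by neuronal nitric oxide synthase (*Nos1*), and with the peptide *Vip*, while excitatory neurons release acetylcholine, made by *Chat*, and tachykinins from *Tac1*. *Cartpt* encodes the CART peptides, *Gal* encodes galanin and *Grp* encodes gastrin-releasing peptide, all of which are stored in dense-core vesicles after their precursors are cut, and *Sncg* encodes gamma-synuclein, a small protein of axons and nerve endings.

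Members were found in every mouse. They were 26 of 354 cells in mouse 1 (7.34%, 95% exact binomial interval 4.85% to 10.6%), 115 of 1050 in mouse 2 (11.0%, 9.13% to 13.0%) and 79 of 656 in mouse 3 (12.0%, 9.65% to 14.8%), a mean of 10.1% ± 2.46 (SD, n = 3 mice). Beside them, 64 cells passed the *Cartpt* threshold alone and 254 passed the *Sncg* threshold alone, and 1522 passed neither. The members of mouse 1 were the fewest and the shallowest, with a median of 4141 UMIs per cell against 11588 in mouse 2 and 10895 in mouse 3, and the other cells of mouse 1 were shallow too, at 3687 against 9394 and 9358. Intervals cover counting error only, and shares of sorted, dissociated and filtered cells are not shares of the tissue. Of the barcodes, 4 cells carried one that another library also held, none of them a member, and a doublet caller marked 10 cells (0.485%), with no member among them.

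In the members the *Cartpt* level, given as UMIs summed over cells per 10000 summed UMIs, was 35.2 in mouse 1, 71.3 in mouse 2 and 38.9 in mouse 3. In the other cells it was 1.60, 2.25 and 1.69. Single members ran from 11.3 to 486 UMIs per 10000, with medians of 28.2, 46.6 and 26.4 in the 3 mice. The *Sncg* level was 15.1, 27.8 and 27.8 in members and 5.04, 2.54 and 3.71 in the other cells. These values chose the cells and are therefore a description with no test.

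Neither threshold sat in an empty gap. The lowest *Cartpt* value among members was 2.51 on the deposited scale and the highest value just under the threshold among *Sncg*-high cells was 2.49, with 28 cells within 0.25 above the threshold and 19 within 0.25 below it. For *Sncg* the nearest values were 2.03 and 1.99, with 14 cells within 0.25 above and 12 within 0.25 below. Of the 474 cells past the *Sncg* threshold, 122 had no *Cartpt* UMI at all, while of the 284 cells past the *Cartpt* threshold 16 had no *Sncg* UMI. The plot of *Cartpt* against *Sncg* shows the members and the cells near the lines.

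**Figure D1:**
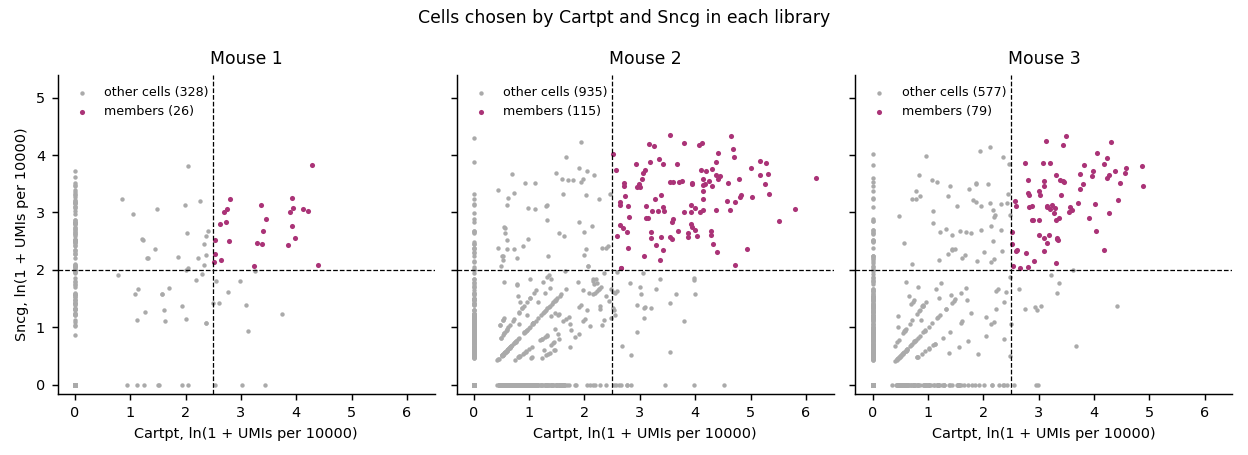
Each point is 1 cell, with the deposited *Cartpt* value on the x axis and the *Sncg* value on the y axis, both as ln(1 + UMIs per 10000), in 1 panel per mouse. Dashed lines are the thresholds of 2.5 and 2.0, coloured points are the 26, 115 and 79 members, and grey points are the other cells, several of which lie close to the lines.

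The sequences upstream of *Cartpt*, the gene that chose the members, and of *Vip*, the most raised of the peptide genes that passed the test in them, are shown because cyclic AMP is a known signal for both genes. They are the 250 bases before the RefSeq start in GRCm38.p6, read in the direction of the gene, at chr13:99900684-99900933 on the minus strand for *Cartpt* and chr10:5638968-5639217 on the plus strand for *Vip*. Capitals mark the full cyclic AMP response element TGACGTCA, its shorter 5-base form TGACG, and the TATA box TATAAA, each searched on both strands.
Cartpt: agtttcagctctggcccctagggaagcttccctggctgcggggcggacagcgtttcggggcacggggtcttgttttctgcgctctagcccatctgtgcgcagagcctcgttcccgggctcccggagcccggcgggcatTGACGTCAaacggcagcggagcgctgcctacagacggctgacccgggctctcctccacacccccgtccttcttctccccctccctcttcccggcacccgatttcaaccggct
Vip: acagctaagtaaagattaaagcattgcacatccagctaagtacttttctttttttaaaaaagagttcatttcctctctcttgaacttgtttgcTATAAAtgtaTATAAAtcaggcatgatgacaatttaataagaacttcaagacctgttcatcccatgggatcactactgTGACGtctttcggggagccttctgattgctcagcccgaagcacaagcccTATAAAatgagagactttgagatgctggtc
The *Cartpt* window held a full element that starts 112 bases before the start, which is in 1.55% of all 32851 windows of this length, and also counts as a match to the shorter form on each strand. The *Vip* window held the shorter form alone, which is in 17.8% of windows, and 3 TATA boxes, which are in 12.4%. Of the other member genes looked at, the *Sncg*, *Gal*, *Mt3*, *Gstp1* and *Pcbd1* windows held neither form of the element, and the *Nos1* window held the shorter form once, 130 bases before the start. A match is a match of letters and does not show a bound site.

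The further genes that named these cells were not raised to the same extent in every mouse. *Gal* was at 63.3, 315 and 124 UMIs per 10000 in the members of mice 1, 2 and 3 and at 19.1, 24.2 and 19.5 in the other cells. *Grp* was at 4.12, 7.34 and 12.0 against 0.386, 0.502 and 0.743. Both peptide genes were higher in members in all 3 mice, by 2.69 ± 0.988 for *Gal* and 3.25 ± 0.430 for *Grp* (SD, n = 3 mice) on the scale of log2(level + 0.25), and no test is given because these genes were named from earlier results of the same cells. *Mt3*, a metallothionein that binds zinc and copper in neurons, was at 11.9, 7.29 and 11.7 against 4.62, 1.12 and 2.22. *Pcbd1*, which recycles the cofactor tetrahydrobiopterin used by nitric oxide synthase, was at 2.06, 6.46 and 6.31 against 0.907, 1.04 and 0.915. *Gstp1*, a glutathione transferase, was at 13.0 and 7.87 against 3.05 and 2.08 in mice 2 and 3 but at 1.51 against 1.52 in mouse 1. Among the cells low in *Gm42418*, a subset defined below, the mean differences were 1.85 for *Grp*, 1.72 for *Gal*, 0.78 for *Pcbd1*, 0.40 for *Mt3* and -0.0075 for *Gstp1*, whose members then lay below the other cells in mouse 3. Of the 7 genes of the rule and the name, in all cells, *Gstp1* is thus the one whose members did not lie above the other cells in every mouse.

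**Figure D2:**
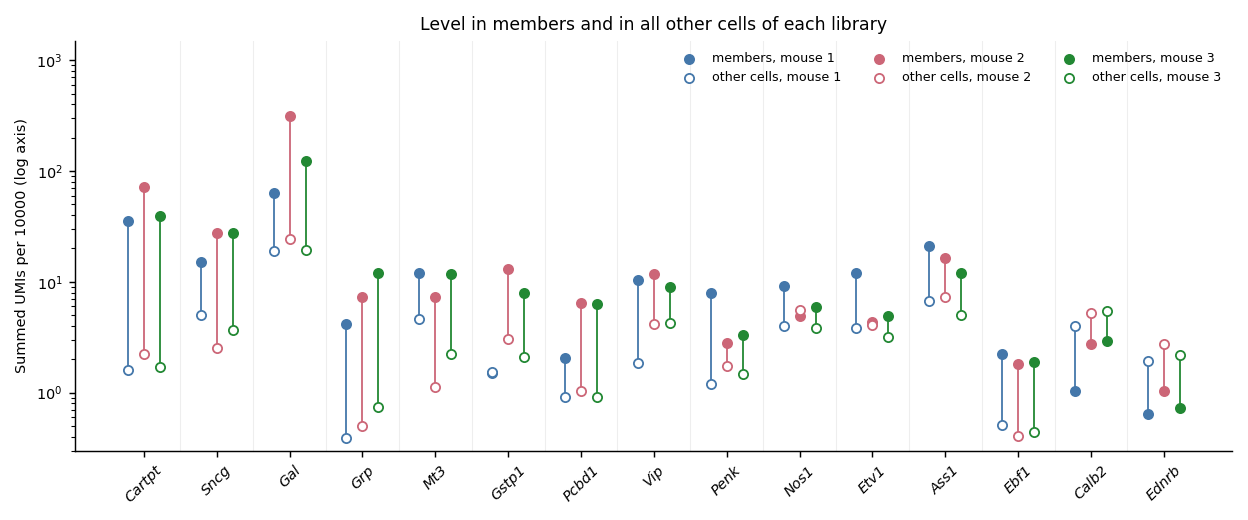
Summed UMIs per 10000 on a log axis for 15 genes, with filled points for members and open points for all other cells of the same mouse, joined by a line and coloured by mouse. The filled point lies above the open one in all 3 mice for the genes not named next, at the same height in mouse 1 for *Gstp1*, slightly under it in mouse 2 for *Nos1*, and below it in all 3 mice for *Calb2* and *Ednrb*.

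With *Cartpt* and *Sncg* left out of the calculation, the members still lay near each other in overall expression in mice 2 and 3, and less so in mouse 1. Among the 20 nearest neighbours of a member in its own library, other members were 26.2% in mouse 1, 82.9% in mouse 2 and 66.3% in mouse 3. Members made up 7.34%, 11.0% and 12.0% of those libraries. A majority of member neighbours was found for 0 of 26, 105 of 115 and 63 of 79 members. Cells past the *Sncg* threshold alone had 37.6% and 35.2% member neighbours in mice 2 and 3, cells past the *Cartpt* threshold alone 15% and 30%, and cells past neither 1.72% and 1.71%. Leaving out all 7 named genes gave a mean over mice of 59.1%, against 58.4% ± 29.2 (SD, n = 3 mice). In the cells low in *Gm42418*, defined below, members had 22.5%, 77.3% and 68.9% member neighbours where members were 8.99%, 56.3% and 49.7% of the cells, *Sncg*-only cells had 9.32%, 54.1% and 61.9%, and the few *Cartpt*-only cells had 23%, 52.5% and 65%, above the members in mouse 1. Neighbours within a library share its depth and RNA composition, so these shares are a description.

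**Figure D3:**
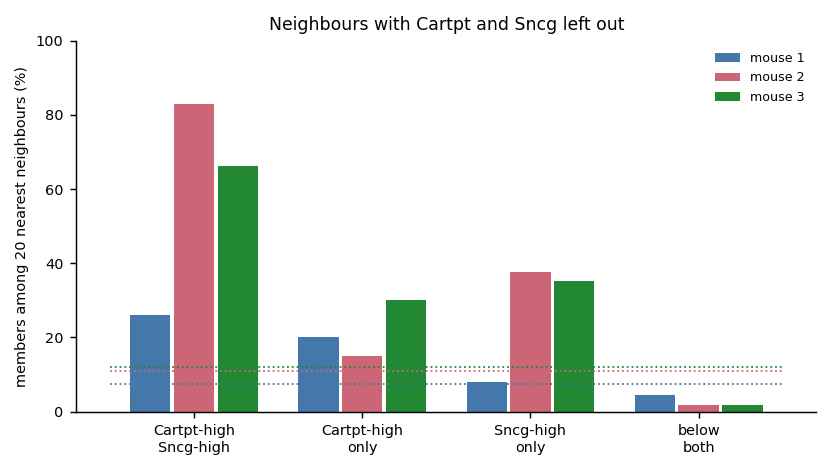
The mean share of members (in percent) among the 20 nearest neighbours of a cell, for the 4 classes of cells and each mouse, with *Cartpt* and *Sncg* left out. Dotted lines give the share of members in each library, and the bars of members stand above the bars of the other classes in every mouse, at 26.2%, 82.9% and 66.3%.

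The members of mice 2 and 3 also differed from other cells in the makeup of their RNA, and this touches most comparisons below. *Gm42418*, a non-coding locus that overlaps ribosomal RNA sequence, had a median of 1.78 and 2.09 UMIs per 10000 in the members of mice 2 and 3. In the cells below both thresholds it had 24.8 and 25.1, in cells past the *Cartpt* threshold alone 21.5 and 15.3, and in cells past the *Sncg* threshold alone 4.35 and 4.02. In mouse 1 the gap was small, at 3.42 in members and 5.23 in cells below both thresholds. The nuclear RNA *Malat1* moved with it, at 110 and 168 in members of mice 2 and 3 against 323 and 439 below both thresholds, as did the median share of mitochondrial UMIs, at 1.12% and 1.14% against 2.93% and 3.09%. In mouse 1 *Malat1* was at 462 against 533, and the mitochondrial share was 2.97% in members and 2.88% below both thresholds. A *Gm42418* level of at most 5 per 10000 was found in 198 of the 220 members and in 321 of the other cells, and the comparison was repeated within these 519 cells, a limit set after the values were seen. The limit also changed which cells were compared. Cells below both thresholds were 233 of 328 other cells in mouse 1, 817 of 935 in mouse 2 and 472 of 577 in mouse 3. Under the limit they were 113 of 162, 32 of 83 and 19 of 76, and the rest were past 1 of the thresholds. What part the RNA makeup has in the gene differences was not tested beyond that repeat, which changed the compared cells as well.

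**Figure D4:**
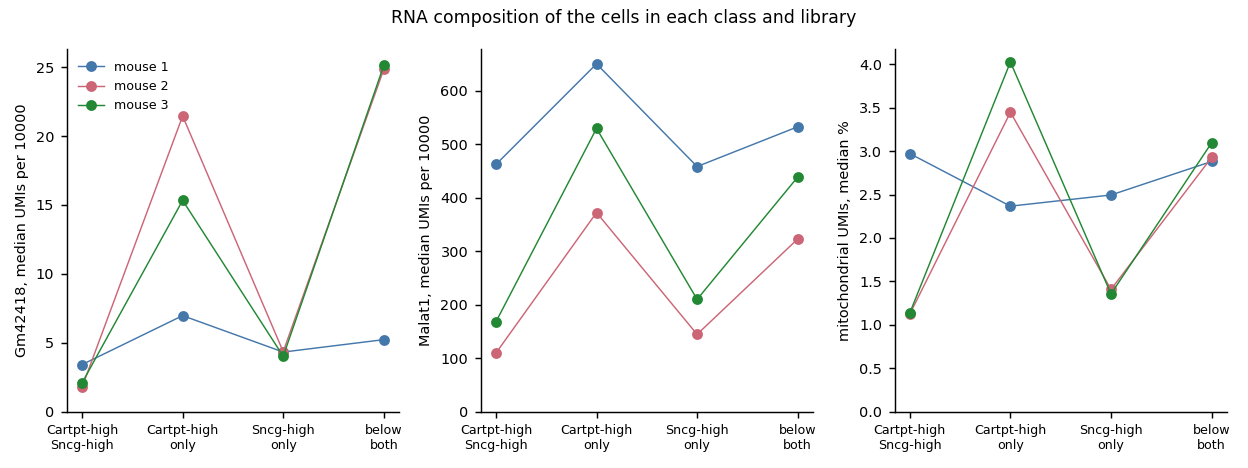
Median *Gm42418* and *Malat1* level (UMIs per 10000) and median mitochondrial share (percent of UMIs) for the 4 classes of cells on the x axis, with 1 line per mouse. In mice 2 and 3 the members have the lowest point in each panel, for example 1.78 and 2.09 for *Gm42418* against 24.8 and 25.1 in cells below both thresholds, and in mouse 1 the mitochondrial share of members, 2.97%, is the highest of the 4 classes.

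Members were set against all other cells of the same mouse with limma on log2(level + 0.25), with the mouse as a block and Benjamini-Hochberg adjustment over 3461 genes, from which the 7 genes above were left out. At an adjusted p under 0.05, 324 genes (9.36%) were higher and 459 (13.3%) were lower in members. The median difference of all genes was -0.12, and with each library centred on its median the counts were 347 higher and 281 lower. The counts rested on which mice were used. Without mouse 1 they were 971 and 1529, without mouse 2 they were 71 and 94, and without mouse 3 they were 49 and 85. Within the cells low in *Gm42418*, 0 genes (0%) were higher and 1 (0.031%), *Calb2*, was lower of 3221 tested by limma, with 642 genes at an unadjusted p under 0.05. Of the 671 genes called in all cells and tested in the low cells, 660 kept their sign there, and the median ratio of the smaller to the full difference was 0.447.

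The genes named next are the called genes with the largest increases at a mean level of at least 2 per 10000 in members. *Nefl*, the light neurofilament chain of axons, was at 6.10, 2.28 and 2.53 UMIs per 10000 in members and at 0.564, 0.520 and 0.721 in other cells. This is 4.19-fold on the log2(level + 0.25) scale (2.07 ± 0.296 SE, limma adjusted p = 0.0207). *Pcp4l1*, a small protein related to a calmodulin-binding peptide, was at 4.99, 1.22 and 1.71 against 0.9999, 0.203 and 0.260 (1.90 ± 0.160, limma adjusted p = 0.0182). *Ntng1*, a netrin-family membrane protein that guides axons, was at 2.85, 2.19 and 2.78 against 0.564, 0.383 and 0.710 (1.85 ± 0.156, limma adjusted p = 0.0182). For all 3 genes every member value lay above every value of the other cells. Set against the cells past the *Sncg* threshold alone, however, none of the 3 passed (limma adjusted p = 0.637, 0.222 and 0.260). There *Nefl* was lower in the members of mouse 3 (2.53 against 2.88). *Nefl* also did not pass against the cells past the *Cartpt* threshold alone (limma adjusted p = 0.0535). *Fkbp1b*, a partner of intracellular calcium release channels, differed by 1.80, and *S100a13*, a calcium-binding protein, by 1.56, both past the limma threshold. *Pcsk1n*, an inhibitor of prohormone convertase, differed by 1.70 and *Resp18*, a protein of the secretory pathway, by 1.62. Among cells low in *Gm42418* these differences were smaller, at 1.30 for *Nefl*, 1.05 for *Pcp4l1*, 0.96 for *Ntng1*, 0.75 for *Fkbp1b*, 1.20 for *S100a13*, 0.71 for *Pcsk1n* and 0.86 for *Resp18*, with limma adjusted p from 0.0582 to 0.0987.

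*Ndufc1*, *Ndufa3*, *Ndufa7* and *Ndufa5*, subunits of respiratory complex I, differed by 1.61, 1.58, 1.47 and 1.47, *Nop10*, a part of small nucleolar ribonucleoproteins, by 1.76, *Sh3bgrl3* by 1.51 and *Cebpzos* by 1.47. All passed the limma threshold, with adjusted p from 0.0207 to 0.0332. In the cells low in *Gm42418* their differences were between 0.32 (*Ndufa5*) and 0.68 (*Sh3bgrl3*), with none past the limma threshold.

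The called genes with the largest decreases were taken by the same rule. *Sox4*, active in immature neurons, was at 1.82, 0.582 and 0.684 UMIs per 10000 in members against 4.25, 4.23 and 4.14 in other cells (-1.93 ± 0.280 SE, limma adjusted p = 0.0207). The highest member value lay below the lowest value of the other cells. The nuclear factor I genes *Nfib*, *Nfix* and *Nfia* differed by -1.56, -1.5 and -1.47, and the chromatin remodeller *Chd7* by -1.62. *Zbtb20*, a zinc finger repressor, differed by -1.49, *Tcf7l2*, a mediator of Wnt signalling, by -1.51, the splicing kinase *Clk1* by -1.47 and the antisense RNA *Kcnq1ot1*, which silences imprinted genes, by -1.58. Among cells low in *Gm42418* the differences were -0.81 for *Sox4*, between -0.40 and -0.84 for 7 of the others and -1.26 for *Tcf7l2*, with none past the limma threshold.

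**Figure D5:**
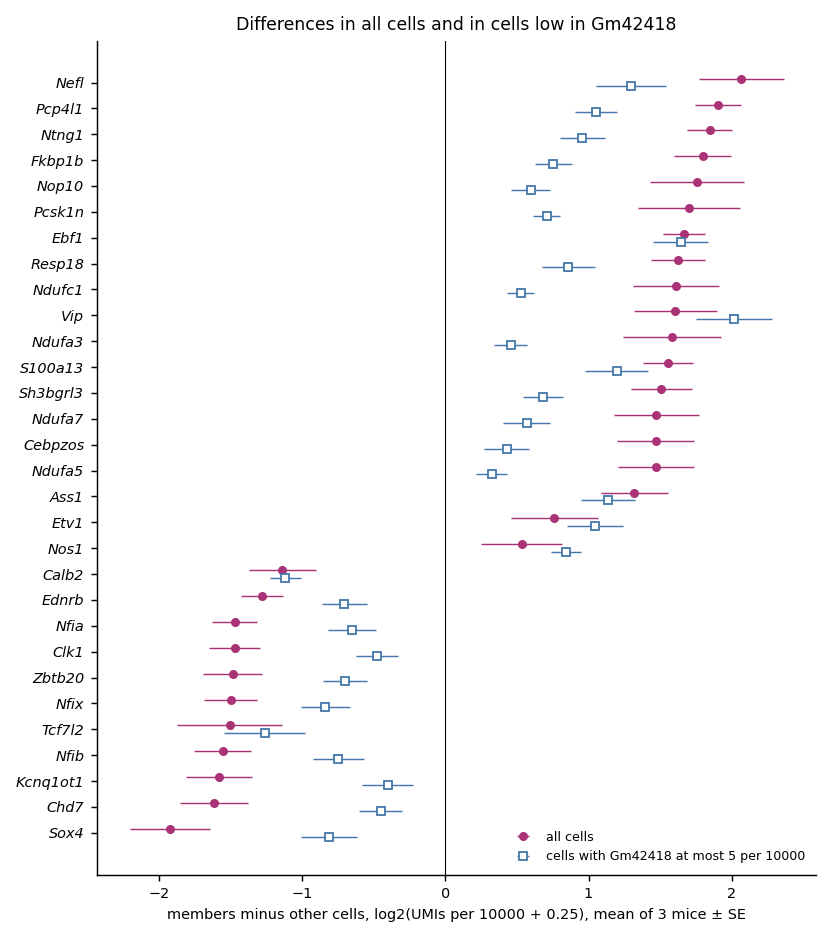
Differences between members and other cells, as the mean over 3 mice of log2(UMIs per 10000 + 0.25) with its SE, for the 15 genes most raised, for 9 of those most lowered and for 6 other genes of the lists and fixed genes. Filled circles are all cells and open squares the cells with *Gm42418* at most 5 per 10000. The squares lie nearer to 0 than the circles for each of these most changed genes except *Vip*, and farther from it for *Vip*, *Etv1* and *Nos1*, and the pairs of *Ebf1* (1.67 and 1.64) and *Calb2* (-1.14 and -1.12) nearly coincide.

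Among 20 neuropeptide genes 6 could be tested, of which 2 rose and 1 fell, against 9.36% and 13.3% of all tested genes, with a median difference of 0.26 beside -0.12 for all genes. *Vip* was at 10.5, 11.7 and 9.03 UMIs per 10000 in members against 1.86, 4.14 and 4.27 in other cells (1.61 ± 0.289 SE, limma adjusted p = 0.0245). Every mouse had more *Vip* in its members, and in the cells low in *Gm42418* the difference was 2.01 (limma adjusted p = 0.0582). Against the cells past the *Cartpt* threshold alone *Vip* differed by -0.22 (limma adjusted p = 0.786). Against the cells past the *Sncg* threshold alone it differed by 1.21 (limma adjusted p = 0.283), with mouse 3 reversed (9.03 against 10.4). In the cells low in *Gm42418* these differences were 1.89 and 1.63 (limma adjusted p = 0.0736 and 0.807). *Penk*, the precursor of the enkephalins, was at 7.85, 2.83 and 3.33 against 1.21, 1.75 and 1.46 (1.39 ± 0.355, limma adjusted p = 0.0418). Among cells low in *Gm42418* the *Penk* differences were 2.51, -0.29 and 0.52, so mouse 2 turned (mean 0.91, limma adjusted p = 0.310). Against the cells past the *Sncg* threshold alone *Penk* differed by 0.081 (limma adjusted p = 0.973), with mouse 2 reversed (2.83 against 10.3). *Sst*, which encodes somatostatin, fell by 1.04 (limma adjusted p = 0.0423), from 0.293, 1.65 and 0.605 in other cells to 0.159, 0.349 and 0.166 in members. Few cells held much of it, with 5 *Sst* UMIs or more in 2 members (0.909%) and 22 other cells (1.20%). Among cells low in *Gm42418* the *Sst* differences were -0.0029, -0.39 and -0.99, at levels too low to be tested. *Npy*, *Tac1* and *Calcb* did not pass. *Calcb*, found in intrinsic sensory neurons, was lower in the members of mouse 1 (0.793 against 2.17) and higher in those of mice 2 and 3 (1.49 against 0.700 and 2.66 against 1.79). Among cells low in *Gm42418* it was lower in members in all 3 mice, by a mean of -0.99 (limma adjusted p = 0.0582).

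Of 17 genes of dense-core vesicles and peptide processing 13 were tested, and 2 of them, *Pcsk1n* and *Resp18*, rose, against 9.36% of all tested genes. The median difference of the list was 0.03 beside -0.12 for all genes. The granins *Chga*, *Chgb* and *Scg2* differed by 0.03, -0.22 and -0.18, the convertase *Pcsk2* by -0.20 and the carboxypeptidase *Cpe* by -0.0011, none past the threshold. *Pam*, which amidates peptides such as *Vip* and galanin, was at 8.96, 2.30 and 3.43 against 4.90, 1.94 and 2.24 and did not pass (0.54 ± 0.197 SE, limma adjusted p = 0.0886). Of 14 genes of synaptic vesicle release 10 were tested and 1, *Syn1*, rose, against 9.36% of all tested genes, with a median difference of 0.39.

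Genes of nitric oxide and its cofactor differed among themselves. Of 9 genes on the list 6 were tested, and *Ass1* and *Pts* rose, against 9.36% of all tested genes, with a median difference of 0.53. *Ass1*, which rebuilds arginine, the substrate of nitric oxide synthase, was at 20.9, 16.3 and 12.1 UMIs per 10000 in members and 6.73, 7.37 and 4.99 in other cells. The difference was 1.32 ± 0.235 SE (limma adjusted p = 0.0239), and 1.14 in the cells low in *Gm42418*. In the cells past the *Cartpt* threshold alone *Ass1* was at 21.7, 21.9 and 14.8, and members did not pass against them (-0.25, limma adjusted p = 0.392). *Pts*, an enzyme of tetrahydrobiopterin synthesis, differed by 0.90 ± 0.177 (limma adjusted p = 0.0280), and by 0.49 in the cells low in *Gm42418* (limma adjusted p = 0.126). *Nos1* itself was at 9.12, 4.91 and 5.94 in members against 3.96, 5.51 and 3.83, higher in mice 1 and 3 and slightly lower in mouse 2, and did not pass (0.53 ± 0.284, limma adjusted p = 0.201). In the cells low in *Gm42418* the *Nos1* difference was positive in all 3 mice, at 0.92, 0.78 and 0.83 (limma adjusted p = 0.0564).

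More members than other cells carried a *Nos1* UMI. The share was 80.8% in mouse 1, 88.7% in mouse 2 and 92.4% in mouse 3, a mean of 87.3% ± 5.94 (SD, n = 3 mice), against 34.5%, 50.3% and 49.6% of other cells. After thinning all cells to 3000 UMIs, with 214 members deep enough, the shares were 77.3%, 72.8% and 74.4% against 31.9%, 38.8% and 35.1%. As a gauge of free RNA, 245 cells with more smooth muscle than neuronal marker UMIs had a *Nos1* UMI in 20%, 42.4% and 41.5% at median depths of 3507, 5985 and 6553 UMIs, so a single UMI is weak evidence in a single cell. Members stood above this background in every mouse.

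*Chat* was found in few members. It had a UMI in 1 of 26, 6 of 115 and 10 of 79 members, never more than 1 in a cell, which is 3.85%, 5.22% and 12.7%. The smooth muscle-leaning cells had 0.952%, 1.01% and 17.1% and all other cells 5.79%, 19.6% and 27.9%. Of the 220 members, 184 had a *Nos1* UMI without *Chat*, 5 had *Chat* without *Nos1*, 12 had both and 19 had neither. Of the other genes of acetylcholine use, 5 of 9 were tested and 1 rose, against 9.36% of all tested genes. This was *Ache*, the enzyme that breaks acetylcholine down (0.75 ± 0.173 SE, limma adjusted p = 0.0358). In the cells low in *Gm42418* the *Ache* difference was 0.53 (limma adjusted p = 0.180). *Slc18a3*, the vesicular acetylcholine transporter, did not pass and had a UMI in 11.5%, 54.8% and 69.6% of members against 25.3%, 37.9% and 47.3% of other cells, and in 9.09%, 24.6% and 33.3% against 18.1%, 21.1% and 26.5% after thinning. *Slc18a2*, which loads monoamines into vesicles, rose by 0.73 ± 0.203 (limma adjusted p = 0.0487) while *Th* had 0.0145 UMIs per 10000 in the members of mouse 2 and none in the others, and *Tph2* had none in any. *Gad2*, which makes GABA, had a UMI in 0 of 220 members, for which the upper limit is a share of 1.36% of cells with a UMI by counting error alone, and in 8 of the 1840 other cells.

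Galanin and *Vip* RNA were also found in many cells that were not members. A *Gal* UMI was found in 80.8%, 100% and 96.2% of members and in 21.9%, 86.9% and 82.9% of the smooth muscle-leaning cells, so detection of *Gal* says little about a cell of mice 2 and 3. A *Vip* UMI was found in 65.4%, 86.1% and 88.6% of members and in 17.1%, 49.5% and 61.0% of the smooth muscle-leaning cells. At 5 UMIs or more, *Gal* was found in 199 members (90.5%) and 610 other cells (33.2%). *Vip* at that level was found in 105 members (47.7%) and 239 other cells (13.0%), *Grp* in 46 (20.9%) and 37 (2.01%), and *Penk* in 45 (20.5%) and 128 (6.96%). Of the 105 members with *Vip* at that level 100 also had *Gal* at it, and of the 46 with *Grp* 30 also had *Vip*.

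Of 30 enteric transcription factors 16 were tested, 1 rose and 7 fell, against 9.36% and 13.3% of all tested genes, with a median difference of -0.58 beside -0.12 for all genes. The one that rose was *Ebf1*, a helix-loop-helix factor of neuronal differentiation, at 2.22, 1.83 and 1.90 UMIs per 10000 in members and 0.507, 0.409 and 0.439 in other cells. The 3 mice gave almost the same difference, 1.71, 1.66 and 1.64 (mean 1.67 ± 0.149 SE, limma adjusted p = 0.0182), and it was 1.64 in the cells low in *Gm42418* (limma adjusted p = 0.0564). An *Ebf1* UMI was found in 6 of 26, 67 of 115 and 48 of 79 members, against 10.4%, 14.7% and 14.9% of other cells and 7.62%, 7.07% and 9.76% of the smooth muscle-leaning cells. The core letters bound by this family, CCCNNGGG, occurred in the 250-base windows of *Cartpt*, *Sncg*, *Gal*, *Vip* and *Ass1* and in 11.8% of all windows. They did not occur in the windows of *Nos1*, *Mt3*, *Gstp1*, *Pcbd1*, *Pcsk1n* and *Resp18*, nor in the first of 2 windows of *Ebf1* and of *Etv1*. Such a match does not show a bound site. The factors that fell included *Sox4*, *Sox11*, *Satb1* and *Zfhx3*. *Sox11*, which acts with *Sox4* in young neurons, was at 0.317, 0.167 and 0.331 against 0.614, 1.40 and 1.82, with log2 differences of -0.61, -1.98 and -1.83 in the 3 mice. Among cells low in *Gm42418* the *Sox11* differences were -1.06, -0.10 and -0.34, at levels too low to be tested. *Etv1*, a factor of many nitrergic neurons, had a UMI in 95.9% of members and was at 12.0, 4.36 and 4.96 against 3.86, 4.05 and 3.16, a difference that did not pass (0.76 ± 0.305, limma adjusted p = 0.112). *Bnc2*, a factor of other enteric neurons, was at 0, 0.124 and 0.221 in members against 0.371, 0.685 and 0.890, too low to be tested.

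*Ednrb*, the gene deleted in these mice, still gave UMIs, at 0.634, 1.03 and 0.728 per 10000 in members and 1.93, 2.77 and 2.19 in other cells. The reads are tags from the 3′ end, and the part of the gene that the deletion removes was not given in the sources used here, so these counts are no check of the genotype. The difference was -1.28 ± 0.147 SE (limma adjusted p = 0.0206) and nearly the same in the 3 mice, at -1.30, -1.23 and -1.32, and in the cells low in *Gm42418* it was -0.705. Against the cells past the *Cartpt* threshold alone the *Ednrb* difference was 0.00063 (limma adjusted p = 0.999). Against those past the *Sncg* threshold alone it was -0.21 (limma adjusted p = 0.836). An *Ednrb* UMI was found in 23.1%, 60.0% and 53.2% of members and in 44.8%, 79.8% and 63.4% of the smooth muscle-leaning cells. The members stood below these cells in each mouse. Whether the smooth muscle-leaning cells hold *Ednrb* RNA of their own was not tested, so they are not taken as a gauge of free RNA for this gene. Of 11 receptors of the GDNF, neurotrophin and endothelin families 6 were tested, and *Gfra2*, *Ntrk3* and *Ednrb* fell, against 13.3% of all tested genes. The median difference of these receptors was -0.52.

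Of 13 genes of neurofilaments and the neuronal cytoskeleton 12 were tested and *Nefl*, *Nefm* and *Prph* rose, against 9.36% of all tested genes. The median difference of the list was 0.56. *Nefm*, the middle neurofilament chain, was at 2.46, 0.713 and 0.828 against 0.257, 0.246 and 0.381 (1.38 ± 0.328 SE, limma adjusted p = 0.0367). Of 12 immature neuron genes 6 were tested, 1 (*Tagln3*) rose and 2, *Sox11* among them, fell, against 9.36% and 13.3% of all tested genes. Their median difference was -0.54. *Calb2*, calretinin, was at 1.03, 2.77 and 2.95 against 3.96, 5.27 and 5.44 (-1.14 ± 0.234, limma adjusted p = 0.0302), and at -1.12 with limma adjusted p = 0.0494 in the cells low in *Gm42418*. Against the cells past the *Cartpt* threshold alone *Calb2* did not pass (-0.72, limma adjusted p = 0.174). Against those past the *Sncg* threshold alone it differed by -1.65 (limma adjusted p = 0.0377). In the cells low in *Gm42418* these 2 differences were -0.40 and -1.27 (limma adjusted p = 0.583 and 0.733). Of the 7 calcium-binding genes 3 were tested, beside shares of 9.36% higher and 13.3% lower over all tested genes. *S100a6* rose by 1.43, *Calb2* fell as given and *S100a10* did not pass. Among cells low in *Gm42418* the differences of *Nefm* and *S100a6* were 0.69 and 0.67, with neither past the limma threshold.

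Among 23 metallothionein and antioxidant genes 15 were tested, 4 rose and 0 fell, against 9.36% and 13.3% of all tested genes, with a median difference of 0.45. *Gpx3*, a secreted glutathione peroxidase, was at 2.77, 1.05 and 1.42 UMIs per 10000 against 0.479, 0.176 and 0.234 (1.82 ± 0.162 SE, limma adjusted p = 0.0182). *Mt1*, another metallothionein, was at 1.11, 1.29 and 1.31 against 0.429, 0.458 and 0.459 (1.09 ± 0.148, limma adjusted p = 0.0206). In all cells both genes were higher in members in each mouse, and among cells low in *Gm42418* the differences were 2.31, 0.85 and 0.68 for *Gpx3* and 1.22, 0.36 and 0.11 for *Mt1*, with neither past the limma threshold. *Prdx1* and *Txn1*, of the peroxiredoxin and thioredoxin systems, rose by 1.17 and 0.71, mainly in mice 2 and 3 for *Prdx1* (0.30, 1.72 and 1.5 in mice 1, 2 and 3), and in the cells low in *Gm42418* their differences were 0.27 and 0.12.

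Of 26 nuclear genes of the respiratory chain 25 were tested, 13 rose and 0 fell, against 9.36% and 13.3% of all tested genes, with a median difference of 1.03, while of 12 tested genes encoded in the mitochondrion 0 rose and 1 (*mt-Atp8*) fell, with a median of -0.99. The mitochondrial genes differed by mouse. For *mt-Atp6* the members had 33.5, 15.7 and 20.4 UMIs per 10000 against 35.1, 66.1 and 71.7 in other cells, so mouse 1 showed almost no gap. In the cells low in *Gm42418* the medians were 0.30 and -0.22. Within the nuclear list, *Uqcrc1*, *Uqcrc2*, *Sdha*, *Atp5b* and *Atp5a1* differed by between -0.32 and -0.0087 in all cells and did not pass.

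Markers of other cell types were present in members and in other cells alike. The summed level of 12 glial markers was 7.93, 17.6 and 15.4 UMIs per 10000 in members and 17.7, 14.3 and 12.4 in other cells. Of 8 tested glial genes 3, *Foxd3* and *Cdh19* among them, were lower in members, against 13.3% of all tested genes. The summed level of 10 smooth muscle markers was 31.4, 19.5 and 19.99 in members against 85.5, 18.1 and 11.5, with 0 of 9 tested genes past the limma threshold in either direction and 1 positive difference. These 2 sums were lower in the members of mouse 1 and higher in those of mice 2 and 3, and their part in the gene differences was not tested. In the cells low in *Gm42418* all 9 tested smooth muscle genes and all 7 tested glial genes had negative differences. The 8 fibroblast markers summed to 6.18, 3.32 and 2.68 against 16.6, 3.85 and 2.96. Leukocyte, endothelial and epithelial markers each summed to under 2 UMIs per 10000 in members. *Kit*, the defining marker of interstitial cells of Cajal, was at 0, 0.0073 and 0.0441 in members. The 10 pan-neuronal markers summed to 105, 91.1 and 83.4 in members against 71.0, 64.4 and 62.4 in other cells, and 194 of the 220 members had more neuronal than glial and than smooth muscle marker UMIs.

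Within the members, *Grp* marked a minority with its own pattern. A *Grp* UMI was found in 4 of 26, 34 of 115 and 34 of 79 members, against 1 of 105, 19 of 99 and 4 of 41 smooth muscle-leaning cells, and the 10 highest cells of mice 2 and 3 held 80.9% and 84.8% of all *Grp* UMIs of the members. In the members with *Grp*, *Ntng1* was at 5.49, 3.86 and 4.07 UMIs per 10000 against 2.30, 1.47 and 1.78 in those without. *Nefl* was at 25.6, 4.28 and 3.61 against 2.01, 1.43 and 1.69, and *Sncg* at 25.6, 39.5 and 34.3 against 12.9, 22.8 and 22.8. *Nos1* went the other way, at 4.12, 3.28 and 4.98 with *Grp* and 10.2, 5.61 and 6.68 without. *Pdyn*, the precursor of dynorphins, was at 1.22 and 0.733 with *Grp* and 0.0934 and 0.216 without in mice 2 and 3, and at 0 in mouse 1. These groups were formed from the same cells and the values are a description, and the 4 *Grp* cells of mouse 1 are few.

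*Penk* and *Tac1* were often found in the same members of mice 2 and 3. Over the member cells the correlation of their ln values was 0.655 in mouse 2 (n = 115) and 0.695 in mouse 3 (n = 79), and 0.147 in mouse 1 (n = 26), where 2 cells had both. Of the 45 members with 5 or more *Penk* UMIs, 26 also had 5 or more *Tac1* UMIs and 8 had 5 or more of *Grp*, beside 46 of all 220 members with that much *Grp*. *Vip* correlated with *Ebf1* at 0.531, 0.409 and 0.537 in the 3 mice. *Grp* correlated with *Nos1* at -0.310, -0.325 and -0.360. Cells of a library share its depth and free RNA, so the values describe these cells.

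Members differed from the cells past the *Cartpt* threshold alone in 143 genes that were higher (4.03%) and 189 that were lower (5.33%) of 3546, by limma over the 4 classes with the mouse as a block. Without mouse 1 the total was 1789 genes, without mouse 2 it was 0 (426 at an unadjusted p under 0.05) and without mouse 3 it was 1. Within the cells low in *Gm42418*, where mice 1, 2 and 3 had 5, 10 and 6 *Cartpt*-only cells, 7 (0.216%) were higher and 7 (0.216%) lower. *Penk* was at 7.85, 2.83 and 3.33 UMIs per 10000 in members and 0, 1.07 and 0.598 in *Cartpt*-only cells (limma adjusted p = 0.0210). *Pcp4l1*, *Ntng1*, *Fkbp1b* and *Cebpzos* were the other largest increases at a mean level of at least 2 per 10000. *Calcb*, below that level, was at 0.793, 1.49 and 2.66 against 0.199, 0.121 and 0.0747 (2.20 ± 0.299 SE, limma adjusted p = 0.00974), and differed by 2.03 in the cells low in *Gm42418* (limma adjusted p = 0.00315). *Ntng1* differed by 1.98 in all cells and 2.30 in the cells low in *Gm42418* (limma adjusted p = 0.00859). The largest decreases included *Col1a2*, *Dpysl3*, *Eml5* and *Clk1*. *Col1a2*, a collagen chain of fibroblasts, was at 0.793, 0.706 and 0.563 against 6.16, 1.43 and 1.42. *Nos1* was lower in members than in *Cartpt*-only cells in each mouse, at 9.12, 4.91 and 5.94 against 12.3, 16.7 and 15.8 (-1.17 ± 0.267 SE, limma adjusted p = 0.0267), but differed by -0.33 in the cells low in *Gm42418*. *Grp* was at 0, 0.0970 and 0.149 in the *Cartpt*-only cells and at 1.20, 3.25 and 3.96 in the cells past the *Sncg* threshold alone, a description as above.

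Against the cells past the *Sncg* threshold alone fewer genes differed. Members were higher in 8 genes (0.226%) and lower in 30 (0.846%) of 3546. Without mouse 1 the total was 616 genes, without mouse 2 it was 3 and without mouse 3 it was 6. Within the cells low in *Gm42418*, 0 (0%) were higher and 1 (0.0309%) lower by limma, with 78 genes at an unadjusted p under 0.05. The increases included *Nos1* and *Ass1*, while *Vip* and *Etv1* did not pass (limma adjusted p = 0.283 and 0.0691). *Nos1* was at 9.12, 4.91 and 5.94 UMIs per 10000 in members and 2.27, 1.54 and 2.79 in *Sncg*-only cells (1.48 ± 0.267 SE, limma adjusted p = 0.0210). *Ass1* was at 20.9, 16.3 and 12.1 against 7.22, 6.07 and 5.64 (1.32 ± 0.184, limma adjusted p = 0.00465), and *Rprml* and *S100a13* differed by 1.40 and 1.14. In the cells low in *Gm42418* *Nos1* and *Ass1* differed by 1.22 and 1.15 (limma adjusted p = 0.445 for each). The decreases held genes found in intrinsic sensory neurons. *Calcb* was at 0.793, 1.49 and 2.66 against 6.96, 5.81 and 9.65 (-2.12 ± 0.299, limma adjusted p = 0.00465), and it was the 1 gene that also passed in the cells low in *Gm42418* (-2.05, limma adjusted p = 0.0135). *Nmu*, neuromedin U, was at 0.159, 0.0655 and 0.497 against 3.47, 1.89 and 2.42 (-2.60 ± 0.302, limma adjusted p = 0.00198), and *Ntrk3*, the neurotrophin 3 receptor, *Pcdh10*, a protocadherin, and *Adgrg6*, an adhesion receptor, differed by -2.49, -2.41 and -2.02. *Mt3*, by contrast, was close in the classes, at 11.9, 7.29 and 11.7 against 14.6, 7.43 and 11.8. *Gstp1* was lower in the members of mouse 1 (1.51 against 2.53) and higher in those of mice 2 and 3 (13.0 against 8.39 and 7.87 against 5.95).

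Along the genome *Cartpt*, *Sncg*, *Gal*, *Vip*, *Nos1*, *Ebf1* and *Ass1* each lie on a different chromosome. Of the other genes named above, not all of which were placed, *Gstp1* lies on the chromosome of *Gal*, at chr19:4035407-4037985, as does *Tcf7l2*. *Nefl*, *Chat* and *Ednrb* lie on the chromosome of *Sncg*, *Sox4* on that of *Cartpt*, *Pcbd1* on that of *Vip* and *Nop10* on that of *Ass1*. In GENCODE M21 (GRCm38) (possibly another annotation than that behind the deposited counts) *Cartpt* spans chr13:99898489-99901091 and *Sncg* chr14:34370274-34374789, both on the minus strand, and *Gal* chr19:3409915-3414544, also minus. *Vip* spans chr10:5639218-5647617, *Nos1* chr5:117781032-117958840, *Ebf1* chr11:44617317-45008091 and *Ass1* chr2:31470207-31520672, all on the plus strand. Each value above is a count over the whole gene with no exon or isoform resolved.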

How the data were processed

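Sorted tdTomato-positive cells of 3 mice were profiled on the 10x Genomics v3.1 platform. The authors aligned and counted reads with Cell Ranger (version not given in the sources used here) on mm10, filtered cells by gene number and mitochondrial share, removed confounding genes, and deposited natural log values, ln(1 + UMIs per 10000), for the cells kept as neurons. Whole UMIs were recovered by taking the smallest value above 0 of a cell as 1 UMI, which gave whole numbers within 1e-06 in all 2060 cells. Because the deposited unit is a log, no count model was used. UMIs were summed per class and mouse, divided by the summed totals, and fitted as log2(level + 0.25) with limma 3.58.1 in R 4.3.3 (trend and robust), with the mouse as a block, for genes with a mean level of at least 0.5 per 10000. Against all other cells the p-values measure the spread between 3 mice, with variances moderated across genes. The comparisons with Cartpt-only and Sncg-only cells came from 1 fit of the 4 classes. There each gene has 1 residual variance over all classes, so the SE is not the spread of the tested difference alone. Total UMIs were 1526256, 10358118 and 6412495 in mice 1, 2 and 3. Named genes were the 15 most raised and 10 most lowered called genes at a level of at least 2 with the same sign in each mouse, 5 on each side for the other comparisons (4 met the rule as higher against Sncg-only cells), 6 fixed genes and list members. List members with small differences, such as the granins and 5 respiratory chain genes, were named after their values were seen. Some genes that met these rules are not reported here. The members and lists were chosen with earlier results of these data known. Neighbours used 20 principal components of 2000 genes. Doublets were sought with Scrublet in scanpy 1.11.5, at an expected rate of 6%, and left out only as an alternative. Other alternatives were pseudocounts, filters, thresholds, thinning to 3000 UMIs, centring, no library term, subsets of cells and leaving out each mouse, and the limit on Gm42418 was added after seeing the data. The scripts were tested on simulated data.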

Additional observations from a re-analysis of the deposited data

How the results depend on the processing

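The counts of genes that differed moved most with the settings. Against all other cells, the 324 higher genes became 0 with no filter on low genes, 172 at a level of at least 2, 105 with no library term, 177 with both sides holding a Nos1 UMI, 578 with Cartpt at 2.0 or more, and 49 to 971 on leaving out a mouse. The 459 lower genes became 0, 63, 192, 282, 756 and 85 to 1529 in the same order, 281 when centred, 237 with thinned cells and 295 with Sncg at 2.5 or more. With no filter 20208 genes were tested by limma and 3939 had an unadjusted p under 0.05. In cells low in Gm42418, chosen after seeing the data, the counts were 0 higher and 1 lower, 51 and 64 with mouse 2 also left out, 60 and 93 with mouse 3 left out, and 1 and 0 with a Nos1 UMI. Against Cartpt-only cells 332 became 0 with no filter (2543 at an unadjusted p under 0.05), 155 at a level of at least 2, 17 with no library term, 0 to 1789 on leaving out a mouse, 14 in cells low in Gm42418 and 12, 0 and 8 there without mouse 1, 2 or 3. Against Sncg-only cells 38 became 12 with no filter, 10 at a level of at least 2, 9 with no library term, 16 for the mean of cells, 10 with thinning, 3 to 616 on leaving out a mouse, 1 in cells low in Gm42418 and 0 there without mouse 1, 2 or 3. The share of members, 10.1%, was 7.57% with Cartpt at 3.0 or more, 38.3% among cells low in Gm42418 and 9.15% to 11.5% on leaving out a mouse, and the member neighbours were 46.2% to 74.6%. The share with Nos1, 87.3%, was 77.4% at 2 UMIs, 74.8% thinned and 84.7% to 90.6% on leaving out a mouse, and that with Chat, 7.24%, was 0% at 2 UMIs and 4.53% to 8.94%. With both sides holding a Nos1 UMI the differences of Etv1 and Nos1 turned to -0.0326 and -0.37. Over 34 named genes, 563 of 633 values under planned settings kept direction and side of the threshold and 66 lost the call, and 78 of 170 and 86 under added ones. The cause was not tested. The mouse as a block pairs the classes of cells, and the fit with no library term is the one without this pairing. Depth limits mouse 1 most.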
